A study of Mus musculus with 209 samples.

Results

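The paternal and maternal copies of genes were compared by their transcripts in 8 wild-type (WT) mouse 2-cell libraries. A gene entered when its counts assigned to either parent's allele summed to 50 or more over the 8 libraries, which left 10869 of the 24450 gene rows. The paternal share of a gene is its paternal counts over its paternal plus maternal counts, in percent. Genes were described in 3 classes of this share, above 80%, from 40 to 60% (called near 50%) and under 5% (called near 0%), so that membership of a class is a description and not a test.

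A mouse egg carries a large store of RNA made by the mother while the oocyte grew, and its own genome is silent when it is ovulated. Transcription of the embryo's genome begins after fertilisation, with a large wave at the 2-cell stage, while stored RNA is degraded. A transcript of the father's allele can be new or brought by the sperm, whereas a transcript of the mother's allele can be stored or new. These libraries cannot tell stored from new RNA on the maternal side. Imprinted genes are read from the copy of 1 parent, either because DNA methylation was laid down in the egg or sperm or because histone H3 lysine 27 methylation in the egg silences the maternal copy.

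The libraries are polyA RNA from mouse 2-cell samples of WT genotype, labelled as single-cell RNA sequencing and numbered 1 to 8. The 9 KO 2-cell libraries set beside them carry the label N14 maternal KO, meaning that the mother lacked the gene, and the 14 WT oocyte libraries are from MII oocytes, the ovulated stage. Per the labels' protocols, the mothers were superovulated C57BL/6 females of 6 to 8 weeks. The same text gives the fathers as C57BL/6 or PWK, an inbred strain of a different subspecies, without saying which sired these samples. Counts can be split by allele only where the parents differ in sequence, which a C57BL/6 father would not give. The 2-cell samples were taken 42 to 43 hours and the oocytes 14 to 15 hours after hCG, the hormone that triggers ovulation. No reciprocal cross was analysed here, so the parent and the strain of an allele cannot be told apart. No animal or embryo is named for a library, and sister cells of 1 embryo are not marked. The 8 libraries were therefore treated as 1 sample, no test was run, and the spread between libraries is given instead. Intervals are exact Clopper-Pearson intervals at 95% that treat every count as independent, and they leave out the spread between libraries. The reads carry no molecular identifiers, so copies of 1 molecule can be counted separately and the intervals can be too narrow.

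The WT 2-cell libraries held 3788348 to 10303580 total counts, of which 33.8 to 39.4% were assigned to an allele. All 6 of the 2-cell markers were detected, with a summed level of 675 to 1450 counts per 1000000 gene counts (CPM) in WT 2-cell libraries and 4.77 CPM in WT oocytes. The 6 spermatid and sperm markers summed to 2.81 to 16.3 CPM, and the 8 cumulus and granulosa markers to 10.0 to 28.3 CPM, with Foxl2 and Inhba at 0. Library 8 stood apart, with the most counts, the lowest share of spike-in RNA (0.0583%, against 0.101 to 0.135% in the others) and the highest summed level of the 7 oocyte markers, at 9470 CPM, against 3450 to 8210 CPM in the others. Library 1 was next at 8210 CPM. The overall values are therefore also given without libraries 1 and 8, an alternative chosen after seeing the data.

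The promoters of 4 genes whose counts came mainly or wholly from the paternal allele and of a gene with balanced counts are shown because the oocyte marks that silence a maternal copy act at such start regions. They are RefSeq sequences of build GRCm38.p6, from 250 bases before to 50 after a start site, 5′ to 3′ on the gene's strand, with CG in capitals, the dinucleotide that carries DNA methylation. Nnat (chr2:157559828-157560127, plus strand), Kcnq1ot1 (chr7:143296498-143296797, minus strand) and Zrsr1 (chr11:22971755-22972054, plus strand) are known to carry DNA methylation from the egg at their maternal copies. Slc38a4 (chr15:97020310-97020609, minus strand, 1 of 3 listed promoters) is known as a gene marked by histone methylation in the egg. Dnajb9 (chr12:44210019-44210318, minus strand) had the most counts among genes near 50%.
Nnat: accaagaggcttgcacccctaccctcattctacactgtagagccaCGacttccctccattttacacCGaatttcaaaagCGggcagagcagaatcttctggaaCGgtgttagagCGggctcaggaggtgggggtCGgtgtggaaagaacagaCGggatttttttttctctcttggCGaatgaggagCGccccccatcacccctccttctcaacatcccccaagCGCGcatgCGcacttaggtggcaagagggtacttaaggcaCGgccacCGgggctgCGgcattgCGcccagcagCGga
Kcnq1ot1: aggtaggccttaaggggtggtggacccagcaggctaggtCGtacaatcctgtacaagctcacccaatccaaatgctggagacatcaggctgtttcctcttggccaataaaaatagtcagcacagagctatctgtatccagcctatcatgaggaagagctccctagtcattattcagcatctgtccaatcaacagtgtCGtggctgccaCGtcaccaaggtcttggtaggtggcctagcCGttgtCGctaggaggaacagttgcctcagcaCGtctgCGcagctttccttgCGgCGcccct
Zrsr1: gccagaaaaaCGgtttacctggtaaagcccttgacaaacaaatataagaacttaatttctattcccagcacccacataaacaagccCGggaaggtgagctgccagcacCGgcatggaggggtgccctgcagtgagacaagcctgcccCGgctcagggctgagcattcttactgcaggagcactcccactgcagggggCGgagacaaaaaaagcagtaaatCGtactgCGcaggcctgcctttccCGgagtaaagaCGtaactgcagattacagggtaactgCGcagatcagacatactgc
Slc38a4: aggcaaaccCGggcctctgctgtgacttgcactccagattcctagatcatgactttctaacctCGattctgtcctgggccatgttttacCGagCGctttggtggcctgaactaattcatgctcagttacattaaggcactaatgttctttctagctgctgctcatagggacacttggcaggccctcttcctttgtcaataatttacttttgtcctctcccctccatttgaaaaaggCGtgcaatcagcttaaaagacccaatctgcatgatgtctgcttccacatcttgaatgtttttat
Dnajb9: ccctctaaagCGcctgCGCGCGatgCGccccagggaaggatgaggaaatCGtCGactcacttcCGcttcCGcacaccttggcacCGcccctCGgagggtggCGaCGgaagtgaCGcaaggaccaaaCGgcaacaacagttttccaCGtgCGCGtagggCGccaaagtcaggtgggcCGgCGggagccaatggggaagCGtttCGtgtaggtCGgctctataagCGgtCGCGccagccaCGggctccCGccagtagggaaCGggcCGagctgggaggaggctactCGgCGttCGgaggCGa
The windows hold 17 CG sites in Nnat, 9 in Kcnq1ot1, 10 in Zrsr1, 5 in Slc38a4 and 35 in Dnajb9, and the median was 20 over the 8734 analysed genes with a listed promoter.

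Maternal transcripts dominated the libraries, and the balance differed several-fold between them. Over all genes, 2315616 counts were paternal and 13559017 maternal, a paternal share of 14.6%. By library, the paternal share was 9.03, 23.8, 24.5, 13.1, 16.95, 24.7, 18.6 and 4.00% in libraries 1 to 8. Libraries 2, 3 and 6 were thus the highest and library 8 the lowest. The median gene had a paternal share of 21.6%, the lower quartile was 5.17% and the upper quartile 41.9%. Without libraries 1 and 8, the overall share was 19.9% and the median gene at 27.9%. More maternal than paternal counts were found for 9166 genes and more paternal than maternal counts for 1675. The class above 80% held 282 genes (2.59% of those analysed), the class near 50% 2096 (19.3%) and the class near 0% 2679 (24.6%). Without libraries 1 and 8, the classes held 298, 2288 and 2015 genes in this order. Of the rest, 5198 genes (47.8%) lay from 5 to under 40% and 614 (5.65%) from over 60 to 80%. All allele counts were paternal for 49 genes and maternal for 714. The limits cut a continuous range: 18 genes lay within 1 percentage point above the 80% limit and 8 within 1 point below it, and 216 and 261 genes lay just above and just below the 5% limit.

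**Figure D1:**
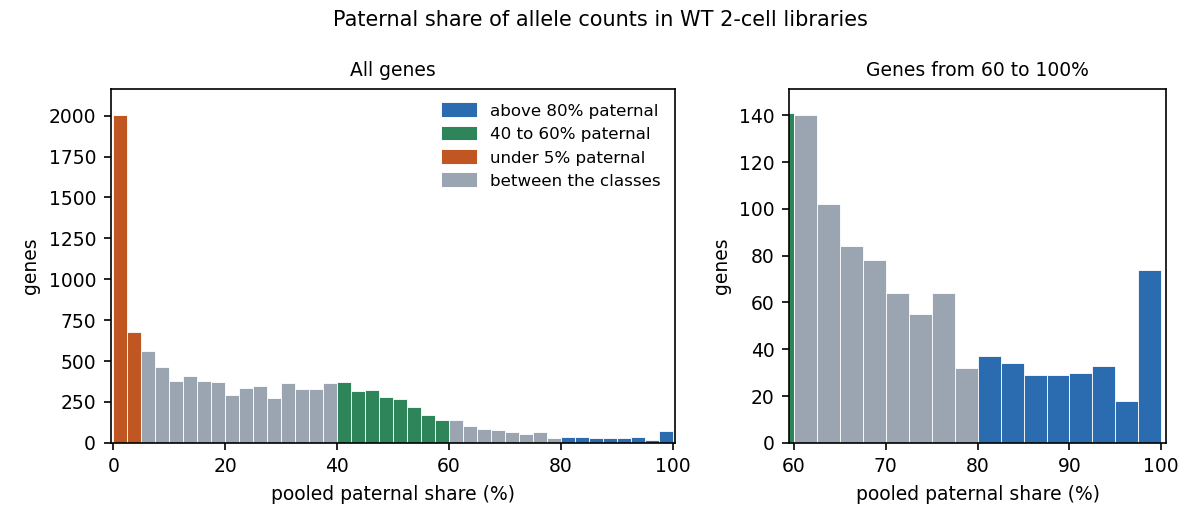
Number of genes by pooled paternal share of allele counts in the 8 WT 2-cell libraries, in bars of 2.5 points, for all 10869 genes (left) and from 60 to 100% on its own scale (right). Colours mark the 282 genes above 80%, the 2096 near 50% and the 2679 near 0%; the highest bar is at 0 and a smaller peak stands at 100%.

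The paternal share was high for transcripts scarce in the egg and low for those already there. Genes were binned by the log2 ratio of their WT 2-cell level to their WT oocyte level, both in CPM. The median share was 10.1% for a ratio under -2, 8.67% for -2 to -1, 8.83% for -1 to 1, 22.3% for 1 to 2 and 38.3% for 2 to 4. Where the ratio was 4 or more, that is at least 16-fold higher in 2-cell samples, the median of 1939 genes was 48.6%. The libraries were close to each other in the top bin, where their medians ran from 43.5% in library 8 to 50.0% in library 2. They were far apart where the level had changed little, with medians in the bin from -1 to 1 of 0.346% in library 8, 2.05% in library 1 and 15.8% in library 6. Without libraries 1 and 8, the medians of these 2 bins were 48.4% and 12.54%. The ratio and the share come from the same 2-cell libraries, so the relation is a description of these libraries.

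**Figure D2:**
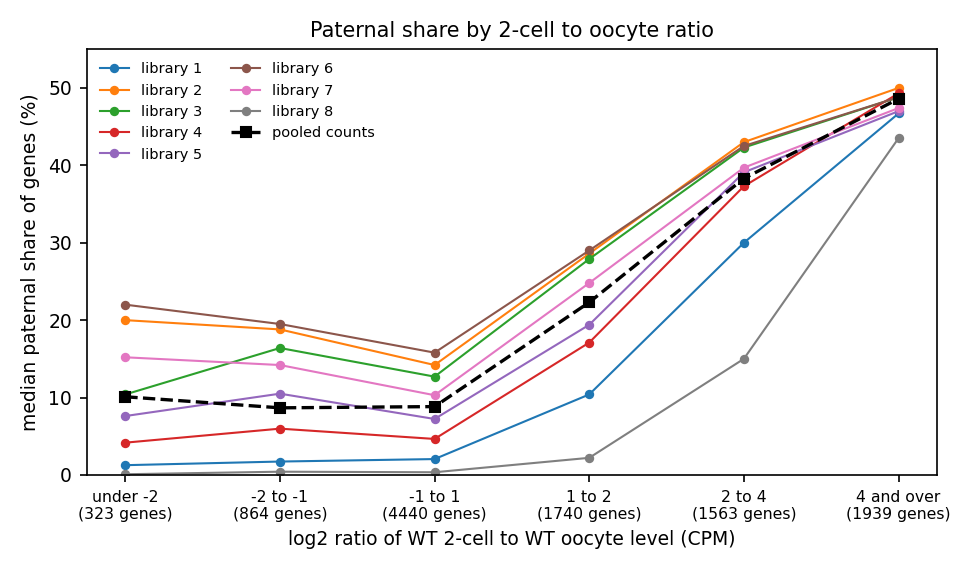
Median paternal share of genes in bins of the log2 ratio of WT 2-cell to WT oocyte level. Each line is a library, with at least 20 allele counts per gene in it, and the dashed line the pooled counts; the lines meet near 50% in the top bin and spread from 0.346 to 15.8% in the bin from -1 to 1.

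The 10 genes with the most counts at 45 to 55% had 0.165 to 213 CPM in WT oocytes, and each was higher in WT 2-cell samples. Dnajb9, an endoplasmic reticulum co-chaperone, had 11623 paternal and 12887 maternal counts, a share of 47.4% (interval 46.8 to 48.1%). Its library shares ran from 41.5 to 51.9% with a median of 48.6%, and its level was 1241 CPM in WT 2-cell samples and 9.82 CPM in WT oocytes. Mt2, a metallothionein that binds zinc and copper, was at 53.9% with library shares of 50.7 to 57.1%, the narrowest spread of the 10 genes with the most counts at 45 to 55%. Calm2, a calmodulin gene, was at 49.6% over libraries of 39.2 to 52.7%, Set, a histone chaperone, at 46.5% over 39.4 to 55.1%, and Selenos, a selenoprotein of the endoplasmic reticulum, at 47.3% over 40.1 to 59.5%. In library 8 alone, the shares of Dnajb9, Mt2, Calm2, Set and Selenos were 50.3, 57.1, 39.2, 39.4 and 59.5%.

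For 3 of the other 5 of these genes library 8 lay far from 50%. Tmed5, which carries cargo out of the endoplasmic reticulum, had a paternal share of 35.7, 40.6, 54.0, 55.4, 38.1, 57.2, 41.5 and 7.59% in libraries 1 to 8. Spc25, a kinetochore subunit with 213 CPM in WT oocytes, had shares of 27% in library 1, 28.1% in library 8 and 48.3 to 55.6% elsewhere. Rpl41, a ribosomal protein gene, went the other way, with 79.9% in library 8 and 47.5 to 55.8% in the others. Ube2c, the enzyme that works with the anaphase-promoting complex, ran from 35.2 to 60.3%, and Cggbp1, a DNA-binding protein, from 48.4 to 66.9%.

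Few genes balanced in the pool stayed at 40 to 60% in every library. Of the 2096 genes near 50%, 809 had at least 20 allele counts in all 8 libraries, and 387 of those stayed at 20 to 80% in all 8, while 12 stayed at 40 to 60%. The median gap between the highest and lowest library of these 809 genes was 46.6 percentage points. With as few as 20 counts, sampling alone can take a balanced gene outside 40 to 60%, so these values do not measure imbalance. Among the 11205 gene and library values with at least 20 counts, 5.07% lay under 5% or over 95%. That share was 7.73% at 20 to 99 counts, 0.840% at 100 to 499 counts and 0.146% at 500 or more. Values under 5% made up 14.1% of those in library 8 and 0.850 to 3.11% of those in libraries 1 to 7. The median share of the class was 31.2% in library 8 and 43.9 to 51.5% in libraries 1 to 7.

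Genes near 0% were mainly transcripts also present in the egg. Of the 2679, 103 (3.84%) were under 1 CPM in WT oocytes, against 20.3% of all genes analysed. The class also held 169 of the 405 X-linked genes (41.7%, against 24.6% of all genes). Paternal counts of X-linked genes lay almost wholly in libraries 3 and 8, which lowers their pooled share. Spin1, a reader of histone methylation abundant in oocytes, had 632 paternal and 332175 maternal counts, a share of 0.190%. Zbed3 and Khdc1b, listed with the protein complex under the egg cortex, were at 0.109 and 2.25%, and at 0.234 and 3.42% without library 8. Tcl1, a coactivator of the AKT kinase, was at 0.177%, and Oosp1, an oocyte-secreted protein, at 0.0836%. C86187, a gene without a described role, had the lowest share among these 10 genes, with 37 paternal and 142261 maternal counts (0.0260%, interval 0.0183 to 0.0358%). For the 10 genes the highest share in any library was 7.38%, for Khdc1b in library 3. The values show how rarely counts of a maternal transcript were assigned to the father in these tables, and whether the remaining paternal counts are transcripts or misassigned reads was not tested.

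Some transcripts abundant in the egg had a high paternal share. The 5 with the highest WT oocyte levels among genes at 40% or more were Wtap, Hsp90aa1, Smu1, Kif20b and Sp110. Hsp90aa1, a cytosolic chaperone, had 2371 paternal and 2792 maternal counts (45.9%), with 401 CPM in WT 2-cell samples and 1969 CPM in WT oocytes. Its library shares were 30.7, 58.6, 56.6, 48.9, 49.1, 43.2, 57.7 and 28.9% in libraries 1 to 8. Smu1, a spliceosome protein, was at 48.4% over libraries of 25.0 to 61.8%, with 239 CPM in WT 2-cell samples and 753 CPM in WT oocytes. Kif20b, a kinesin of cell division, was at 40.1%, and 6.77% in library 8. For all 5 genes library 8 held the lowest share. Wtap, a subunit of the enzyme that writes N6-methyladenosine on RNA, was at 41.8%, but only 2.94% of its counts were assigned to an allele, and for Sp110 8.54%.

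A few genes were nearly silent in the egg yet had almost only maternal counts. Vmn2r94, a vomeronasal receptor gene, had 0 paternal and 662 maternal counts, with maternal counts of 16, 143, 113, 140, 60, 103, 32 and 55 in libraries 1 to 8. It was at 30.1 CPM in WT 2-cell samples and listed at 0 in WT oocytes, and the upper interval bound of its share was 0.556%. Lmx1a, a LIM homeobox transcription factor, had 1 paternal count, in library 8, and 877 maternal counts, with 26.95 CPM in WT 2-cell samples and 0.625 CPM in WT oocytes. Limch1, an actin-binding protein, had 9 paternal and 705 maternal counts, or 1.26%, and 0.474% without library 6. Ankrd37, an ankyrin repeat protein, was at 2.88%, with paternal counts in libraries 6 and 8 alone, and at 1.42% without library 6. Tdpoz1 was at 0.671% and 0.255% without library 5, but it belongs to a family of near-identical copies, among which Tdpoz4 was at 51.1%, so the assignment within that family is uncertain.

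Genes above 80% were mainly scarce or absent in the egg, as their rule required few maternal counts. Of the 282, 236 (83.7%) were under 1 CPM in WT oocytes, against 20.3% of all genes analysed, and 209 (74.1%) were at least 16-fold higher in WT 2-cell samples, against 17.8% of all. Their depth was low, with a median of 114 allele counts against 379 for all genes, and 122 of them had under 100. In 255 genes, at least 4 libraries had 5 or more allele counts. In 164 of them each such library was also above 50%, and 144 of these remained with predicted gene models left out. In 26 genes a single library gave over 50% of the counts.

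The 10 named by highest share had 140 to 475 paternal counts and no maternal count. Fabp4, a fatty acid binding protein of fat cells and macrophages on chromosome 3, had 30, 116, 140, 45, 47, 72, 25 and 0 paternal counts in libraries 1 to 8 (interval 99.2 to 100%). Its level was 19.6 CPM in WT 2-cell samples and 0.119 CPM in WT oocytes. Cd300ld, a receptor of myeloid cells on chromosome 11, had 30, 59, 40, 26, 29, 45, 13 and 43 paternal counts, so that every library carried it. Tap1, the peptide transporter of antigen presentation on chromosome 17, had 7 to 45 paternal counts in each library. Among the others were Olfr1141, an olfactory receptor gene with 279 paternal counts, Grm6, a glutamate receptor of the retina with 196, Fzd6, a receptor of Wnt proteins with 145, Aldoc, a brain form of the glycolytic enzyme aldolase with 140, and the imprinted gene Nnat. Apart from Kdm1b and Fabp4, the genes named here were at 0 to 0.0184 CPM in WT oocytes.

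Kdm1b differed from the rest of these genes. It encodes a histone H3 lysine 4 demethylase known to be needed for DNA methylation imprints in growing oocytes, and its level was 115 CPM in WT 2-cell samples and 186 CPM in WT oocytes. All 281 of its allele counts were paternal, yet these were 5.70% of its counts. In KO 2-cell libraries 99.8% of 1509 allele counts were paternal, against 100% of 281 in WT 2-cell libraries. Whether the few reads behind this share were assigned to the right allele was not tested.

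Several genes above 80% with the most counts were chosen after their values were seen. BC080695 had 2816 paternal and 384 maternal counts (88.0%), with library shares of 80.7 to 94.6%. AU018091 had 2285 and 399 (85.1%), with 15.9% in its lowest library. Ptpmt1 had 989 and 232 (81.0%), with 23.5% in its lowest library. Serpinb3b, a serine protease inhibitor on chromosome 1, had 1301 paternal and 1 maternal counts (99.9%, interval 99.6 to 100%). Its library shares ran from 99.7 to 100%, and its level was 34.3 CPM in WT 2-cell samples and 0.0643 CPM in WT oocytes. Kdm4c, a histone H3 lysine 9 demethylase on chromosome 4, had 1702 paternal and 321 maternal counts (84.1%), with library shares of 55.7 to 92.2%. Zfp983, a zinc finger gene on chromosome 17, was at 90.7% over libraries of 72.4 to 100%. Extl2, an enzyme of heparan sulfate synthesis on chromosome 3, was at 90.4% over 77.8 to 100%. Lpar6, a receptor of lysophosphatidic acid on chromosome 14, was at 83.2% over 64.3 to 100%. Mtfr2, a mitochondrial fission regulator, stood out by its store in the egg, with 46.6 CPM in WT 2-cell samples and 77.5 CPM in WT oocytes at a share of 83.0%, and 42.0% in its lowest library.

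Some genes above 80% lay side by side on the chromosomes. A RefSeq position was available for 280 genes of this class. Of these, 41 (14.6%) had another member as the next analysed gene on either side, in 22 adjacent pairs. The class held 2.59% of all genes analysed, but both sides count, so the 2 percentages are not on the same scale. The same measure was 40.9% for genes near 50% and 58.3% for genes near 0%, classes that held 19.3 and 24.6% of all genes. The pairs include Slc38a2 and Slc38a4 on chromosome 15, with 68 and 62 paternal counts and no maternal count. Sfmbt2 and Prkcq on chromosome 2 were at 94.3 and 95.4%. Smim10l1 and Etv6 on chromosome 6 were at 99.2 and 86.0%, and Fabp9 and Fabp4 on chromosome 3 at 92.7 and 100%. The share of genes above 80% was 5.05% on chromosome 6, the highest of any chromosome, and 1.29% on chromosome 9, the lowest. The order of genes is that of GRCm38.p6, since the tables give symbols alone.

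Paternally expressed imprinted genes ranged from wholly paternal to almost wholly maternal counts. Of 32 listed genes in the table, 17 had 50 or more allele counts, with a median share of 64.5%, against 21.6% for all genes. Of these 17 genes, 5 lay over 60 to 80%, 3 from 40 to 60%, 2 from 5 to under 40% and 2 under 5%. Above 80% were 5 of 17 (2.59% of all genes were), namely Nnat, Zrsr1, Kcnq1ot1, Zdbf2 and Impact. Nnat, a small membrane protein gene within an intron of Blcap on chromosome 2, had 57, 11, 61, 35, 22, 33, 33 and 6 paternal counts in libraries 1 to 8 and no maternal count. Its neighbour Blcap, known to be read from the maternal copy in brain, had 9 paternal and 2601 maternal counts (0.345%). Zrsr1, a splicing factor gene that lies within Commd1 on chromosome 11, had 355 paternal and 12 maternal counts (96.7%), and Commd1, whose product controls copper and NF-kappa-B, 71 and 232 (23.4%). Whether the authors counted by strand is not given in the sources used here, so reads of such nested pairs may be shared between them.

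Kcnq1ot1, a long RNA that silences its neighbours on the paternal chromosome 7, had 14, 41, 18, 78, 49, 63, 77 and 31 paternal counts against 0, 0, 0, 3, 0, 1, 1 and 22 maternal counts in libraries 1 to 8. Library 8 held 22 of its 27 maternal counts. Kcnq1, which hosts it and is known to be maternally expressed, had 0 paternal and 99 maternal counts, with an upper interval bound of 3.66%. Impact, a regulator of translation on chromosome 18, was at 80.3% with library shares of 41.7 to 100%. Zdbf2, a zinc finger gene on chromosome 1, was at 82.7% with only 98 allele counts. Mcts2, which lies within H13, had 43 paternal and 1 maternal counts and Cdh15, a cadherin gene, 46 and 0, both short of the 50 counts required. Other listed genes short of it went the other way, with 2 paternal and 27 maternal counts for Rasgrf1 and 0 and 8 for Igf2.

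Listed genes of the paternal group over 60 to 80% were Fkbp6, an immunophilin of meiosis, at 78.8%, Plagl1, a zinc finger gene, at 70.4%, Nespas, a noncoding RNA antisense to Nesp, at 66.7%, Sgce, a sarcoglycan gene, at 64.5%, and Ddc, an enzyme of dopamine synthesis, at 61.9%. The last 3 had 60 to 63 allele counts each. Usp29, a ubiquitin protease gene, was at 42.5% and Airn, the RNA antisense to Igf2r, at 49.5%. Another 4 genes of the group were mainly maternal. Mest, a hydrolase gene, had 40 paternal and 1835 maternal counts (2.13%, and 1.17% without library 6 or 4.89% without library 8), with 184 CPM in WT 2-cell samples and 259 CPM in WT oocytes. Bcl2l1, a survival gene with a paternal bias known in brain, was at 2.40% (4.84% without library 8), with 81.9 CPM in WT 2-cell samples and 60.8 CPM in WT oocytes. Snrpn, a splicing protein gene, was at 12.6% of 215 allele counts (8.29% without library 5). Peg3, a zinc finger gene, was at 15.2% of 105 (7.37% without library 2). For Peg3, library 2 held 9 paternal and 1 maternal counts, while the libraries 1, 3, 4 and 7 held no paternal count. Inpp5f, an inositol phosphatase gene, was at 49.5%, ranging from 0 to 70.5% between libraries.

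Genes known for silencing of the maternal copy by histone methylation had mainly paternal counts. The 5 with enough counts had a median of 86.6%, and 3 were above 80% (2.59% of all genes were). Library medians ran from 32.7% in library 8 to 100%, on at most 3 genes with 20 or more counts, and library 4 had none. Slc38a4, an amino acid transporter, had 11, 15, 19, 8 and 9 paternal counts in libraries 3, 4, 6, 7 and 8, none in the others, and no maternal count (interval 94.2 to 100%). Sfmbt2, a Polycomb protein, had 99 paternal and 6 maternal counts, all 6 maternal ones in library 7. Jade1, a subunit of a histone acetyltransferase complex, had 259 and 40 (86.6%), with 20 of its maternal counts in library 3 and 18 in library 8. Platr20, a noncoding RNA, was at 78.8%, and Gab1, an adaptor of receptor signalling, at 62.4%. Library 8 gave 58 of the 64 maternal counts of Gab1, and without it the share was 94.6%. Smoc1 had 29 paternal and no maternal counts, under the limit of 50. Xist, also on this list and under the limit, had 17 paternal and 28 maternal counts.

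Maternally expressed imprinted genes gave a lower but mixed picture. The 25 genes with enough counts had a median share of 10.1% (6.49% without library 6), 8 were near 0% (32%, against 24.6% of all genes) and none was above 60%. Th, tyrosine hydroxylase, had 5 paternal and 1525 maternal counts (0.327%, and 0.0727% without library 2), and Slc22a3, a cation transporter, 0 and 266, with an upper interval bound of 1.38%. Others were balanced in the pool: Tnfrsf23, a decoy receptor, was at 58.4%, Igf2r, the receptor that clears IGF2, at 49.3%, Phlda2, a growth restrainer of the placenta, at 48.8%, and Cdkn1c, a cell cycle inhibitor, at 41.0%. Phlda2 ranged from 0% in library 8, on 34 counts, to 83.8% in library 3. Most of these genes were also present in WT oocytes, with a median level of 12.8 CPM against 0.386 CPM for the histone methylation list.

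**Figure D3:**
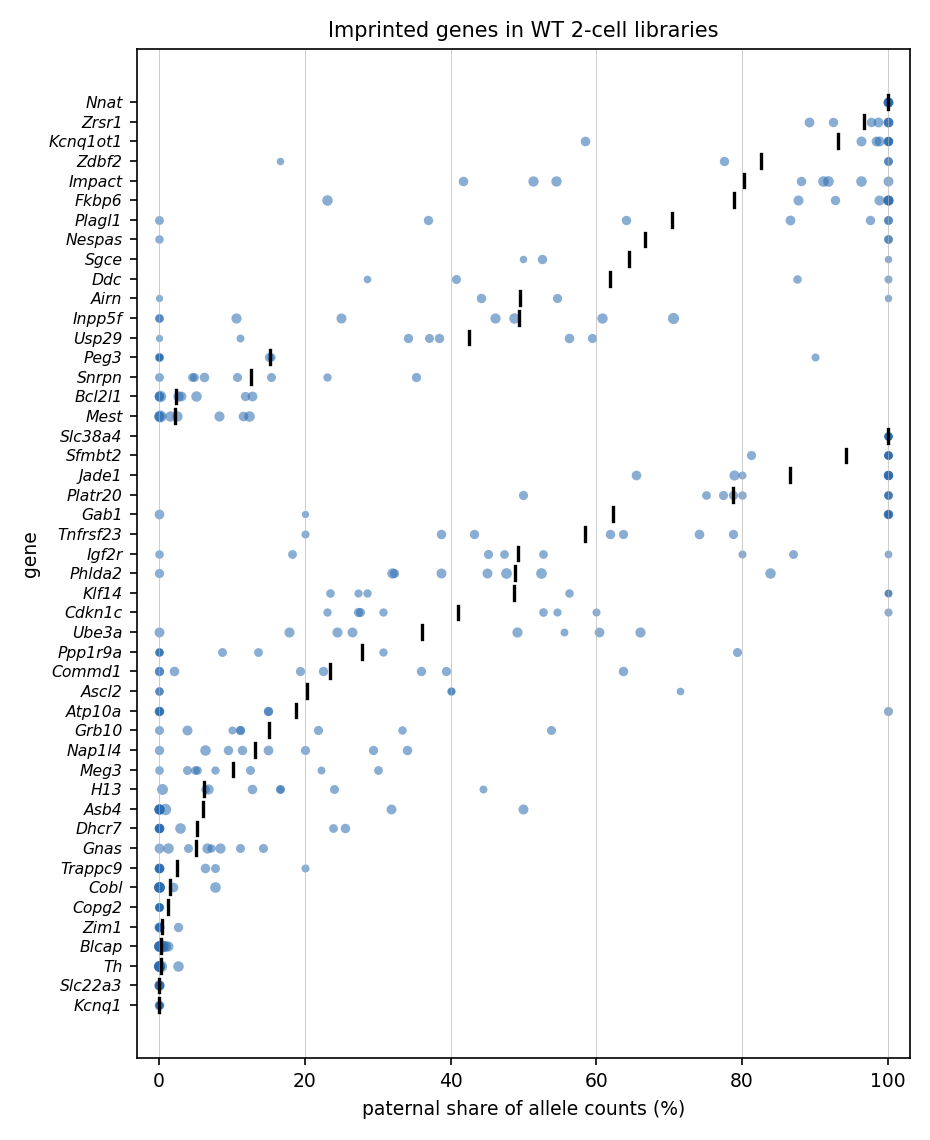
Paternal share of imprinted genes in WT 2-cell libraries. Each point is a library with 5 or more allele counts, larger with more counts, and the black line the pooled share; genes run from the paternally expressed list (Nnat to Mest) over the histone methylation list (Slc38a4 to Gab1) to the maternally expressed list (Tnfrsf23 to Kcnq1).

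Genes known to be switched on at the 2-cell stage had shares well above the median of all genes. The 50 zygotic activation genes with enough counts had a median share of 40.3%, with 22 near 50% (19.3% of all genes were) and none above 80%. Their median was close to the same in every library, from 35.2% in library 5 to 44.8% in library 3, and 40.1% in library 8. Zfp352, a 2-cell zinc finger gene, was at 39.7%, Timd2, a cell surface receptor, at 44.3%, Obox6, a homeobox gene, at 48.7% and Trim43b at 75.04%. Zscan4d, a telomere regulator of the 2-cell burst, was at 15.7% of 1915 allele counts and Zscan4c at 0.429% of 233, with 5.07% of its counts assigned. The Zscan4, Obox and Trim43 families hold near-identical copies, so the values of these genes are uncertain.

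Genes of the ribosome had a pooled median closer to 50% than the zygotic activation genes, but not in every library. Of 76 cytosolic ribosomal protein genes, 40 were near 50% (19.3% of all genes were) and none near 0% (24.6% of all genes were). Their median was 44.2%, and library medians ran from 37.8% in library 8, where the zygotic activation genes were at 40.1%, to 45.9%. Rplp0, the stalk protein of the large subunit, was at 38.9%, and Rps27l, which had 706 CPM in WT oocytes, at 10.4%. Ribosomal protein genes have many processed copies, so these shares may include reads of other loci. The 66 ribosome biogenesis genes had a median of 42.2% with 35 near 50% (19.3% of all genes were). Their library medians ran from 24.8% in library 8 to 47.8% in library 2. Npm1, the nucleolar protein nucleophosmin, was at 31.1%. Translation initiation factors (28.6% over 48 genes), splicing factors (30.0% over 63), proteasome subunits (34.6% over 33) and nuclear genes of the respiratory chain (31.8% over 69) lay lower. In library 8 the medians of these 4 lists were 10.7, 6.12, 9.04 and 10.6%.

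The stored and maternal groups were at the other end. The 49 stored oocyte transcripts had a median of 0.622% (0.196 to 0.289% without library 2, 6, 7 or 8), with 34 near 0% (24.6% of all genes were), and the 17 NLRP and subcortical maternal complex genes 1.13% (0.752% without library 7, 1.96% without library 8), with 12 near 0%. Dppa3, which protects DNA methylation of the maternal genome after fertilisation, had 5462 paternal and 90385 maternal counts (5.70%), running from 0.618% in library 8 to 12.2% in library 2. Of the 22 DNA methylation and demethylation genes, with a median of 23.5%, Tet3, the oxidase that acts on 5-methylcytosine in the zygote, was at 0.445% (0.258% without library 2, 0.705% without library 8). Zfp57, a zinc finger protein that protects imprints, was at 2.03% (5.74% without library 8), and Hells, a chromatin remodeller, at 32.0%.

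Genes of later lineages and of other cell types were detected in part. The 11 blastocyst lineage genes had a median of 34.9%, among them Sall4, a pluripotency factor, at 23.2% and Tead4, a trophectoderm factor, at 63.5% of 293 counts. Of 30 testis and sperm genes, 6 had enough counts, with a median of 42.7%, and 1 of these was above 80%. Ldhc was at 38.5%, Tekt1 at 28.6% and Pgk2 at 46.9%, with 88.5% of the counts of Pgk2 in library 8. The gene above 80% was Tnp1, a transition protein that packs DNA in spermatids. Tnp1 had 78 paternal and no maternal counts, at 4.85 CPM in WT 2-cell samples and 0 in WT oocytes. Its counts lay in libraries 1 to 7. Whether they came from sperm or from the embryo was not tested. The 6 cumulus and granulosa genes had a median of 34.9%, and Amhr2, a hormone receptor, was at 63.2%.

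**Figure D4:**
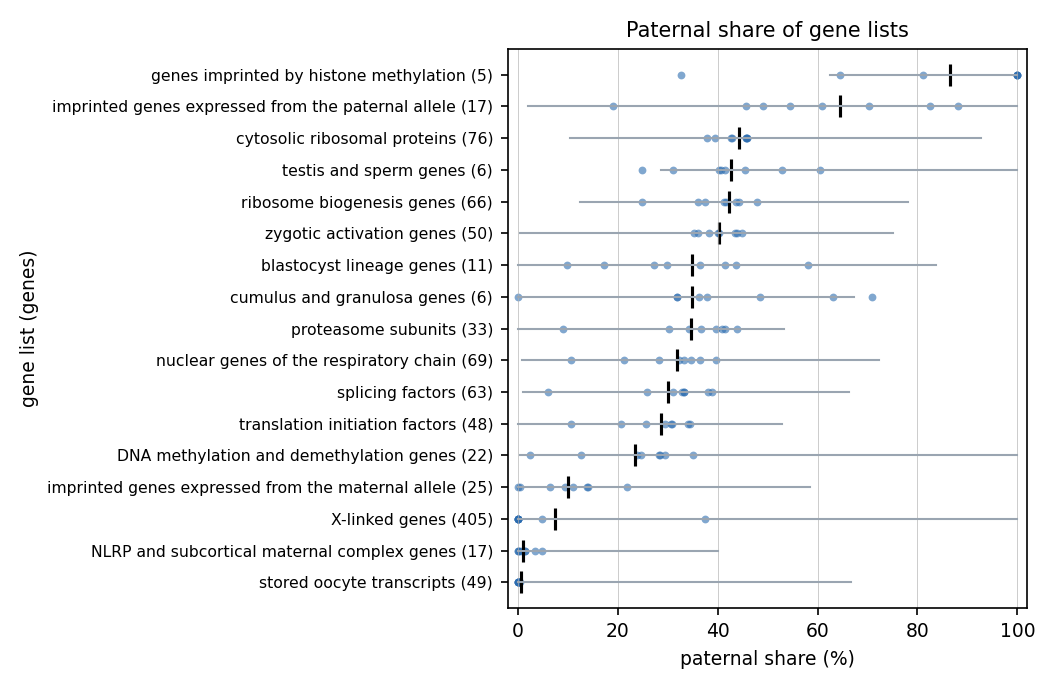
Paternal share of gene lists in WT 2-cell libraries, with the number of genes having 50 or more allele counts in brackets. The black mark is the median gene on pooled counts, the grey line spans its lowest and highest gene, and each point is the median in a library over genes with at least 20 counts there; the lists run from 86.6% (histone methylation) down to 0.622% (stored oocyte transcripts).

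The sex chromosomes split the libraries. A son receives his X chromosome from the mother and a daughter receives an X from each parent. Among 151 X-linked genes at least 4-fold higher in WT 2-cell samples than in WT oocytes, the paternal share was 0.0774, 0.0628, 47.8, 0.161, 0.253, 0.0808, 0.121 and 33.1% in libraries 1 to 8. Libraries 3 and 8 thus carried paternal X transcripts and the other libraries nearly none. Total counts of Y-linked genes were 961, 1516, 2, 904, 948, 1755, 1267 and 0 in the same order. None of the Y-linked counts was assigned to an allele, so the father's Y transcripts are not part of any share given here. Over all 405 X-linked genes the share was 33.7% in library 3, 6.78% in library 8 and 0.109 to 0.144% in the other libraries.

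Single X-linked genes followed the same split. Prps1, an enzyme that makes the sugar phosphate for nucleotides, had 2641 paternal and 3305 maternal counts in library 3 and 648 and 833 in library 8. In the other libraries it had 0 to 3 paternal and 875 to 2427 maternal counts. Bmp15, an oocyte growth factor with 2165 CPM in WT oocytes, had 1 paternal and 1572 maternal counts in library 3. Of the 6 X-linked genes above 80%, Bex1 had the most counts. Chosen after its values were seen, it had 317 paternal and 3 maternal counts in library 3, 60 and 2 in library 8, 0 and 47 in library 4 and 0 and 15 in library 6. Xist, the RNA that silences an X chromosome and is read from the paternal copy in early female embryos, had too few counts to enter. It had 17 paternal and no maternal counts in library 3, and 28 maternal and no paternal counts in library 1, which held Y-linked transcripts. Xist overlaps the antisense gene Tsix, so counts made without regard to strand cannot tell them apart.

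**Figure D5:**
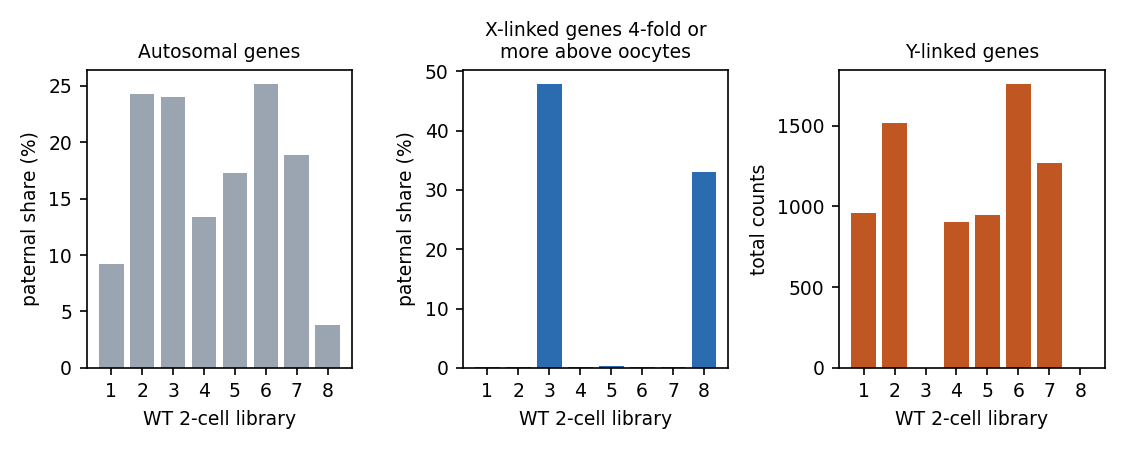
Paternal share of autosomal genes (left, percent), paternal share of the 151 X-linked genes at least 4-fold above oocytes (middle, percent) and total counts of Y-linked genes (right) in each WT 2-cell library. Libraries 3 and 8 have paternal X shares of 47.8 and 33.1% and 2 and 0 Y-linked counts; the other libraries have shares of at most 0.253% and 904 to 1755 Y-linked counts.

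Some genes ranged widely between libraries, though several of the extreme values rested on under 100 counts. Of 2812 genes with 50 or more allele counts in each library, the median gap between the highest and lowest library was 26.4 percentage points. The 5 widest gaps belonged to Zfp160, Mrpl49, Actl6a, Tbc1d1 and Ubxn8. Zfp160, a zinc finger gene, had 0 paternal and 79 maternal counts in library 1, 88 and 0 in library 3 and 0 and 94 in library 8. Mrpl49, a protein of the mitochondrial ribosome, had 77 paternal and no maternal counts in library 8, and 12.7 to 50.3% elsewhere. Actl6a, a subunit of the BAF chromatin remodelling complex, was at 6.95% in library 8 and 54.8 to 92.1% in the others. Tbc1d1, a regulator of glucose transporter traffic, ran from 2.38% in library 1 to 84.4% in library 6, and Ubxn8, a protein of the endoplasmic reticulum, from 0% in library 8 to 81.0% in library 4.

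The KO 2-cell libraries, which did not choose the classes, had lower paternal shares for most genes. Of 9419 genes with enough counts in both, 7770 had a lower share in KO, and the median gene was at 3.37% in KO and 17.7% in WT. Of the 130 genes above 80% in WT that had 50 or more allele counts in KO, 54 (41.5%) were above 80% in KO as well, against 0.828% of all 9419 genes. For genes near 0% in WT it was 2460 of 2588 (95.1%), against 56.9% of all, and for genes near 50% in WT 325 of 1638 (19.8%), against 6.05% of all. The genotypes come from the same tables, so an error of allele assignment would be shared. Cd300ld had a share of 100% in KO and 100% in WT, Serpinb3b 100% and 99.9%, Fabp4 96.4% and 100%, and Kcnq1ot1 79.0% and 93.2%. Impact had 21.4% in KO and 80.3% in WT, and Tmed5 8.75% in KO and 45.6% in WT. Grm6 and Fzd6 had no allele count in KO.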

How the data were processed

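Mouse 2-cell and oocyte libraries were analysed from 3 tables of raw counts per gene symbol, deposited by the authors without normalization: total counts, and those assigned to the paternal and to the maternal allele. Of 24542 rows, 92 ERCC spike-ins were left out. Per the submitters' processing notes the series used build mm9 and, with no role or order, the aligner STAR 2.6.0a, the counters featureCounts 2.0.1 and HTSeq 0.10.0, the trimmers cutadapt 1.15 and Trim Galore 0.6.6, and SAMtools 0.1.18. How reads were assigned to alleles, and whether strand was used, is not given in the sources used here. Of 83014 gene and library values with allele counts, 447 exceeded the total count. No mitochondrial gene was among the rows.

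Counts were summed over the 8 WT 2-cell libraries with Python 3.11.15, pandas 2.3.3, NumPy 2.4.6 and SciPy 1.17.1. CPM scale the pooled gene counts of a group to a common total, and a level under 3 counts over a group was set to 3 counts for ratios. Library shares of lists and bins use genes with at least 20 allele counts in that library, and those of a named gene at least 5. Chromosomes and gene order came from RefSeq annotation of GRCm38.p6, which placed 99.9% of the genes. Share classes were checked on simulated counts. Between any pair of libraries the counts differed by a chi-square of at least 17.3 per gene, so none was a copy.

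Members, classes and gene lists were chosen with earlier results of these data known. Genes named in the text, apart from those said to be chosen after their values were seen or named as neighbours, were drawn by rule, predicted models left out: the 10 highest shares above 80% with every library of 5 or more counts over 50%, in at least 4 libraries; the 10 genes with most counts at 45 to 55% and the 10 under 5%, the 5 with the highest oocyte level at 40% or more, the 5 with most counts under 5% and under 1 CPM in oocytes, and the 5 widest ranges. Up to 4 genes with most counts per list, and imprinted genes with 50 or more allele counts, were added. Zscan4c, Zscan4d, Tdpoz4 and the imprinted genes named with fewer counts were chosen after their values were seen. A gene drawn by the first rule is not reported here.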

Additional observations from a re-analysis of the deposited data

Results flagged for a closer look

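Over 97 sets of library values (totals, bins, lists and named genes), 18 held a library far from all others, its gap to the nearest one being above Dixon's 95% critical share of the whole range. Chance gives about 1 in 20 for separate sets, but these sets share libraries and genes. Library 8 was the distant one for splicing factors (median share 6.12%, against 25.9 to 38.8% elsewhere), proteasome subunits (9.04%, against 30.3 to 43.8%) and genes with a log2 2-cell to oocyte ratio of 2 to 4 (15.0%, against 30.0 to 43.0%). It was low for Tmed5 (7.59%, against 35.7 to 57.2%), Actl6a (6.95%, against 54.8 to 92.1%), Snrpa1, a spliceosome protein (14.1%, against 47.0 to 57.4%), Psma1, a proteasome subunit (9.03%, against 29.0 to 46.6%), and Atp5b, an ATP synthase subunit (10.6%, against 33.3 to 46.6%). It was high for Rpl41 (79.9%, against 47.5 to 55.8%) and Mrpl49 (100%, against 12.7 to 50.3%).

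Library 3 was distant for X-linked genes (33.7%, against 0.109 to 6.78%), Mospd1 (15.4%, against 0 to 0.526%) and Fam199x (3.62%, against 0 to 0.0771%), both on the X chromosome. Some genes near 0% had a library with more paternal counts than the rest. In library 6 these were Zbed3 (1.23%, against 0.0102 to 0.536%) and Limch1 (7.41%, against 0 to 1.79%). In library 5 it was Oog3, a PRAME family gene of oocytes (0.186%, against 0.0503 to 0.0964%). In library 2 these were Th (2.6%, against 0 to 0.247%) and Tet3 (2.92%, against 0 to 0.828%).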

How the results depend on the processing

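Class counts depended on depth and limits. With a minimum of 20 allele counts 518 genes were above 80%, and with 200 there were 83, with 1320 near 50%. Stricter limits (above 90%, 45 to 55%) left 153 above and 1093 near 50%, and 908 genes had their whole interval within 40 to 60%. Leaving out each library in turn gave 240 to 286 genes above 80%, 1887 to 2282 near 50% and 2213 to 2841 near 0%, an overall share of 13.3 to 18.2% and a gene median of 19.9 to 26.1%. The bin medians, from the lowest ratio up, then ran from 8.90 to 11.2%, 8.41 to 10.8%, 7.96 to 11.04%, 20.2 to 26.1%, 37.4 to 40.4% and 47.9 to 48.8%. Among X-linked genes, restriction to those 4-fold above oocytes took library 3 to 47.8% and library 8 to 33.1%. The other 70 summary values stayed within the limit set for them. For shares and medians the limit was the spread between libraries, taken as the standard deviation of single-library values. For class counts it was a fixed fold range around the main count. Both limits are wide. A paternal share over all genes of 19.9% without libraries 1 and 8, against 14.6%, fell within the spread. The 1823 genes near 0% with stricter limits, against 2679, fell within the fold range. Without counting the settings that left out a library, 279 of 280 values for named genes and 66 of 68 for gene lists stayed within the spread between libraries. Oocyte levels from the 10 of 14 oocyte libraries with spike-in RNA moved no bin median past that spread. The class limit of 50 counts allows wide intervals, and a comparison of promoter features between classes is void because only 72.3% of genes above 80% had a sequence. No paired analysis was possible because no animal or embryo is named for a library, so the 8 libraries were treated as 1 sample and the results come from no test.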
